A study of Mus musculus with 12 samples.

Results

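The genes described here carry peptides to the cell surface on class I molecules of the major histocompatibility complex (MHC). They are 10 genes of the 21187 measured: the light chain gene B2m, the heavy chain genes H2-K1 and H2-D1, the peptide transporter genes Tap1 and Tap2, the loading factor gene Tapbp, the immunoproteasome subunit genes Psmb8, Psmb9 and Psmb10, and the regulator gene Nlrc5. They were chosen by symbol, and each symbol stood for 1 Entrez gene in the deposited table. They were measured in myotubes, the fused muscle cells that the mouse C2C12 line gives in culture, at day 3 of differentiation. One experiment compared untreated myotubes with myotubes given 10 ng/ml of leukemia inhibitory factor (LIF), which signals, like interleukin-6, through gp130 and STAT3. The other compared untreated myotubes with myotubes given medium conditioned by C26 cells, 1 part in 3. C26 cells, from a mouse colon tumour, cause wasting in tumour-bearing mice, and the content of their medium was not measured here. The experiments had separate untreated cultures, and each arm was taken at 4, 8 and 24 h. Every array held RNA pooled from 3 wells, with 1 array for each arm and time and 12 in all. A difference at 1 time therefore has no replicate check, and the myotube line is a model without blood, immune or vascular cells.

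Class I molecules show fragments of a cell's own proteins to cytotoxic T cells. The proteasome cuts the proteins, and in cells exposed to interferon the subunits encoded by Psmb8, Psmb9 and Psmb10 replace their constitutive counterparts. The Tap1 and Tap2 proteins form the pump that moves peptides into the endoplasmic reticulum, where tapasin, encoded by Tapbp, holds an empty class I molecule beside the pump. A heavy chain and beta-2 microglobulin, the product of B2m, then leave with the peptide for the surface. Resting skeletal muscle fibres are known for low class I expression, which rises in inflamed muscle. Nlrc5 encodes a co-activator that is recruited to a module of promoter elements, among them the X2 and Y boxes, found in class I genes. Signal transducers of the STAT family and interferon regulatory factors act on separate elements of the same promoters.

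The promoters of H2-K1, H2-D1 and B2m show the X2 and Y cores of that module, whose other elements were not searched. The promoter of Tap1 is shared with a neighbour in the same list. The sequences are RefSeq windows of build GRCm38.p6, from 250 bases before the transcription start to 50 after it, written 5′ to 3′ on the gene's strand. The reference strain is C57BL/6J. Capitals mark TGACG (the core of the X2 box) and ATTGG (the Y box) where exactly 20 bases separate them. They also mark the NF-kB core GGGATTCCC and, on either strand, an interferon response element as GAANNGAAA or as GAAA, 2 bases and GAAA, of which neither form contains the other. The motifs were chosen with these windows in view. In Tap1 capitals mark TGACG alone, letters that 20.8% of all promoter windows hold on either strand, and no ATTGG follows at that spacing.
H2-K1, chr17:34000298-34000597, minus strand: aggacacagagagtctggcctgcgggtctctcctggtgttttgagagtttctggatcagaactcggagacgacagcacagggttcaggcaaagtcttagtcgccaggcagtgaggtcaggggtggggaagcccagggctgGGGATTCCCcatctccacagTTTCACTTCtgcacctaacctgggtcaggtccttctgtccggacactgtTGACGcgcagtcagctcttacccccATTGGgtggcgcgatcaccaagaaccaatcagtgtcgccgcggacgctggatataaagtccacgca
H2-D1, chr17:35262844-35263143, plus strand: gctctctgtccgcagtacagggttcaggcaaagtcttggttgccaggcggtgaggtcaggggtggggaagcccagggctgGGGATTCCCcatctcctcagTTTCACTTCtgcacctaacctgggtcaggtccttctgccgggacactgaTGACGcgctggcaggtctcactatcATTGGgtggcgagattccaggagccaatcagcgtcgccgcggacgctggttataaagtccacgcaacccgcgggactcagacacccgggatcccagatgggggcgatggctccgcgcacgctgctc
B2m, chr2:122147437-122147736, plus strand: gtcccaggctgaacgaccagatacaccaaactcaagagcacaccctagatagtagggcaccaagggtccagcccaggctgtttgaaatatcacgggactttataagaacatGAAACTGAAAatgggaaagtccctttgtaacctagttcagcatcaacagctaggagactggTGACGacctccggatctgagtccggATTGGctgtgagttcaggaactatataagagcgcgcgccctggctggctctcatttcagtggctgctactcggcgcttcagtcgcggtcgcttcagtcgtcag
Tap1, chr17:34187306-34187605, plus strand: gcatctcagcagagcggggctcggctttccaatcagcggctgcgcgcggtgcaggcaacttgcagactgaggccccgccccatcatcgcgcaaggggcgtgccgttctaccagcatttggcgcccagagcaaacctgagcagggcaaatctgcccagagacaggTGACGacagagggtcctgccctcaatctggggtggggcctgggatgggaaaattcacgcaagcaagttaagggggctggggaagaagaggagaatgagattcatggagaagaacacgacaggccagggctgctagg

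Windows were at hand for 8 of the 10 genes, with Tap2 and Nlrc5 unmatched, and H2-K1 had 2 windows, of which 1 is shown. The spaced pair of X2 and Y boxes was in 3 of those 8, against 0.0944% of 32851 promoter windows (31 windows), searched on both strands. Those 31 include the windows of the 3 genes, and the shares count windows where the 8 are counted by gene. As the motifs and the gap were chosen with these windows in view, the shares are a description and no test. Among 17 other class I heavy chain genes and relatives with a window, 1 had the pair, H2-M3. The NF-kB core was in H2-K1 and H2-D1, against 0.353% of all windows, and in 2 of the 17 relatives. In H2-K1 and H2-D1 the X2 box began 69 bases after the start of that core. The interferon response form began 20 bases after the start of the core in both. These genes are close relatives, so their shared letters are not separate observations. The form GAANNGAAA was in H2-K1 and H2-D1 (7.52% of all windows), and in 6 of the 17 relatives. The form with 2 complete GAAA was in B2m (3.44%), and in 2 of the 17. Of 10 antiviral interferon genes with a window, a list used below, 6 had the form with 2 complete GAAA and 3 the form GAANNGAAA. The gamma-activated sequence TTCNNNGAA was in Psmb8 (8.30% of windows). The windows of Tap1 and Psmb9 have 275 bases in common on opposite strands, so 1 stretch of DNA starts both genes. A match describes letters in a window and does not show that a factor binds there.

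On all 12 arrays 9 of the 10 genes lay above background, which was set for each array at the level exceeded by 5% of 1288 olfactory and vomeronasal receptor genes. Psmb8 lay at or below that limit on all 12, and its differences are uncertain. The 9 myotube markers measured, such as Ckm, Acta1 and Myog, were above background on every array. The median log2 value of all genes was 6 at 4 and 8 h and 5.5 at 24 h in the LIF experiment, and 6.71 to 6.74 and then 6.14 in the conditioned medium experiment. Levels were therefore not compared between experiments or between 24 h and earlier times. LIF values carry 1 decimal and conditioned medium values 2, so a LIF difference of 0.1 is 1 step of rounding. C2C12 cells come from C3H mice, whose class I alleles differ from those of the reference strain. H2 genes also have near-identical relatives, and how far the probes of H2-K1 and H2-D1 separate them was not tested.

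**Figure D1:**
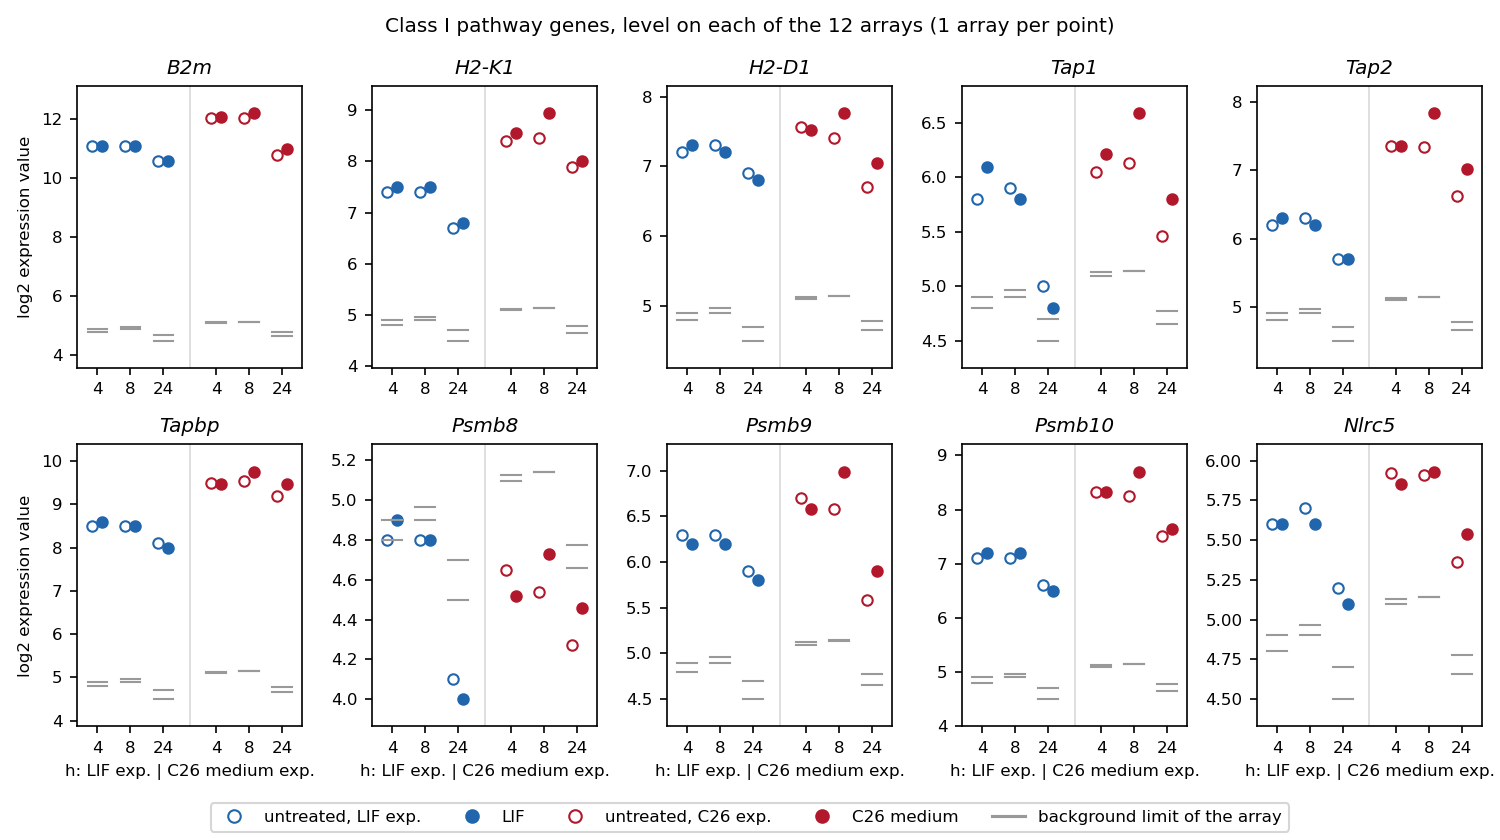
Log2 expression value (y axis, separate scale per gene) of the 10 genes on each array by time in h. Open circles are untreated and filled circles treated myotubes, blue for the LIF and red for the conditioned medium experiment, and grey lines give the background limit of each array. At 8 and 24 h the filled red circle lies above the open one in all 10 panels (for Nlrc5 at 8 h by 0.02, and not after quantile normalization), while Psmb8 stays at or under the grey lines.

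With conditioned medium the 10 genes stood close to the untreated level at 4 h, higher at 8 h and still higher than untreated at 24 h. Their median log2 difference, treated minus untreated, was -0.015 at 4 h, 0.385 at 8 h and 0.225 at 24 h, where the median over all genes was 0 at each time. The number of genes above 0 was 3 of 10 at 4 h, 10 of 10 at 8 h and 10 of 10 at 24 h, against 46.0%, 48.5% and 46.2% of all genes, and after quantile normalization it was 9 at 8 h, where Nlrc5 stood at -0.005. All 10, or 9 after that normalization, were above 0 at both 8 and 24 h, as were 25.9% of all genes. The changes were small: 0 of 10 passed 2-fold at any time, against 0.0755%, 0.340% and 0.392% of all genes at 4, 8 and 24 h, and 0 of 10 passed 1.5-fold, against 0.434%, 1.14% and 2.50%.

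Of the peptide transporter genes, Tap2 had the highest 8 h difference of the group (0.49, beside 0.48 for H2-K1). Tap1 had the group's highest mean over times. Untreated Tap2 read 7.36, 7.35 and 6.63 at 4, 8 and 24 h, and with conditioned medium 7.36, 7.84 and 7.02. The differences were 0.00, 0.49 and 0.39, a 1.40-fold level at 8 h, and 1.10% of all genes had an 8 h difference as high or higher. Tap1 read 6.05, 6.13 and 5.46 without and 6.22, 6.59 and 5.80 with conditioned medium, differences of 0.17, 0.46 and 0.34. Tap1 was thus the gene of the 10 with the highest value at 4 h, where 7.43% of all genes stood as high. For Tapbp, the tapasin gene, the untreated values were 9.49, 9.54 and 9.20 and the treated 9.46, 9.75 and 9.46. Its differences of -0.03, 0.21 and 0.26 were smaller than those of the transporter at 8 h and did not recede at 24 h.

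Among the genes of the class I molecule itself, both heavy chain genes had higher values at 8 h, and they parted at 24 h. H2-K1 read 8.40, 8.46 and 7.89 untreated and 8.55, 8.94 and 8.01 with conditioned medium. Its difference of 0.15 at 4 h became 0.48 at 8 h, which 1.17% of genes reached, and was 0.12 at 24 h, which 25.7% of genes reached. H2-D1 read 7.57, 7.40 and 6.70 untreated and 7.52, 7.76 and 7.04 treated, so its differences were -0.05, 0.36 and 0.34. At 24 h H2-D1 therefore kept nearly its 8 h difference while that of H2-K1 was smaller than at 8 h. The untreated H2-D1 value was 0.17 lower at 8 h than at 4 h, and the treated value 0.24 higher. B2m, the light chain gene, read 12.05, 12.06 and 10.81 untreated and 12.08, 12.21 and 11.00 treated. Its differences of 0.03, 0.15 and 0.19 were the smallest of the 10 at 8 h after that of Nlrc5.

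Of the immunoproteasome subunit genes, Psmb9 and Psmb10 were higher at 8 h to a like extent. Psmb9, which lies beside Tap1 and shares its promoter window, read 6.70, 6.58 and 5.59 untreated and 6.58, 6.99 and 5.90 treated, with differences of -0.12, 0.41 and 0.31. Tap1 and Psmb9 thus differed by a like amount at 8 and 24 h and had opposite signs at 4 h. Psmb10 read 8.33, 8.26 and 7.51 untreated and 8.33, 8.70 and 7.65 treated. Its differences of 0.00, 0.44 and 0.14 receded at 24 h, as those of H2-K1 did. Psmb8 read 4.65, 4.54 and 4.27 without and 4.52, 4.73 and 4.46 with conditioned medium, all within the background range.

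Nlrc5, the co-activator gene, had the smallest 8 h difference of the 10. It read 5.92, 5.91 and 5.36 untreated and 5.85, 5.93 and 5.54 with conditioned medium, differences of -0.07, 0.02 and 0.18, of which the second has no settled sign. At 8 h 45.0% of all genes stood as high as Nlrc5, and at 24 h 17.7% did. The 8 h differences of Tap1, Tap2, H2-K1, H2-D1, Psmb9 and Psmb10 come from the same pair of arrays. The part of Nlrc5 in those differences was not tested, and its protein was not measured.

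**Figure D2:**
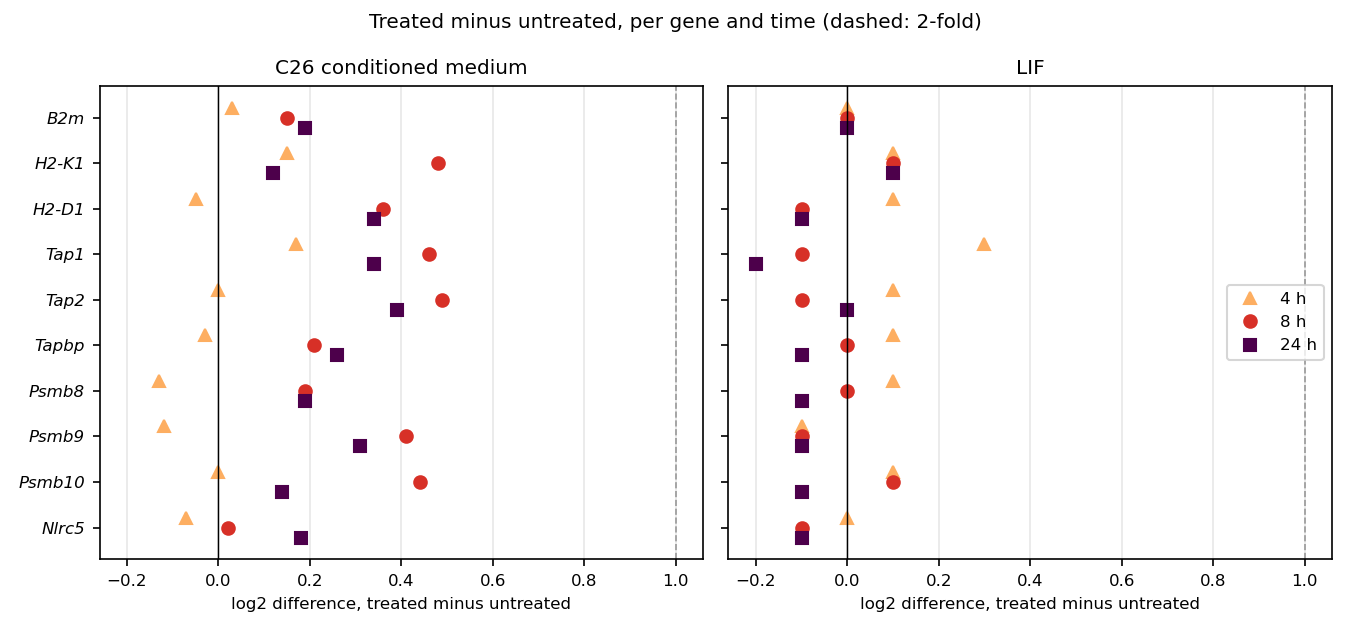
Log2 difference, treated minus untreated (x axis), for each of the 10 genes, with triangles for 4 h, circles for 8 h and squares for 24 h. With conditioned medium all circles and squares lie right of 0 (the Nlrc5 circle not after quantile normalization) and left of the dashed 2-fold line, while LIF values lie between -0.2 and 0.3.

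A comparison of times on one scale is possible between 4 and 8 h. In untreated cultures of the conditioned medium experiment the 8 h minus 4 h value of the 10 genes ran from -0.17 (H2-D1) to 0.08 (Tap1), with a median of -0.01. In cultures with conditioned medium it ran from 0.08 (Nlrc5) to 0.48 (Tap2), with a median of 0.33, against 0.01 for all genes. The treated change exceeded the untreated one in each of the 10 genes, Psmb8 in the background range included. This restates that each had a larger difference at 8 h than at 4 h, and the share over all genes was not counted. In the LIF experiment the same value ran from 0.0 to 0.1 in untreated cultures and from -0.3 (Tap1) to 0.0 with LIF.

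**Figure D3:**
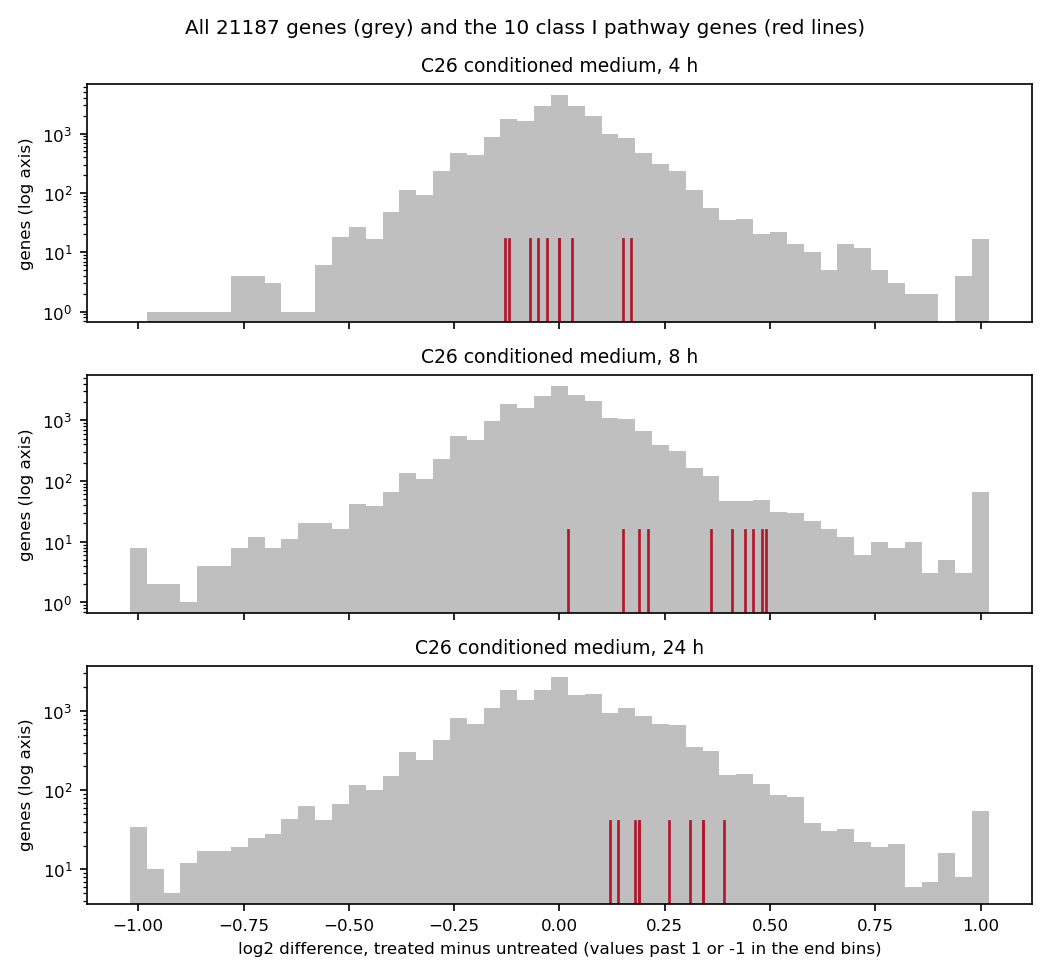
Number of genes (log axis) by log2 difference with conditioned medium at 4, 8 and 24 h, all 21187 genes in grey and the 10 class I pathway genes as red lines. The red lines lie around 0 at 4 h, spread from 0.02 to 0.49 at 8 h and from 0.12 to 0.39 at 24 h, inside the range of the grey distribution.

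With LIF the genes stayed within a few rounding steps of the untreated level. The median difference was 0.1 at 4 h, -0.05 at 8 h and -0.1 at 24 h, with 7, 2 and 1 of 10 genes above 0, against 35.9%, 31.6% and 30.6% of all genes. Tap1 had the widest swing, with untreated values of 5.8, 5.9 and 5.0 and LIF values of 6.1, 5.8 and 4.8, hence differences of 0.3, -0.1 and -0.2. B2m read 11.1, 11.1 and 10.6 in both arms. H2-K1 read 7.4, 7.4 and 6.7 untreated and 7.5, 7.5 and 6.8 with LIF, a single step at each time. H2-D1 read 7.2, 7.3 and 6.9 untreated and 7.3, 7.2 and 6.8 with LIF. Neither heavy chain gene moved by more than that step. Tap2 read 6.2, 6.3 and 5.7 untreated and 6.3, 6.2 and 5.7 with LIF, and Tapbp 8.5, 8.5 and 8.1 and then 8.6, 8.5 and 8.0. Psmb9 was 1 step lower at each time (6.3, 6.3 and 5.9 against 6.2, 6.2 and 5.8), and Psmb10 read 7.1, 7.1 and 6.6 and with LIF 7.2, 7.2 and 6.5. Psmb8, in the background range, read 4.8, 4.8 and 4.1 and then 4.9, 4.8 and 4.0. Nlrc5 stood at 5.6, 5.7 and 5.2 untreated and 5.6, 5.6 and 5.1 with LIF. Past 2-fold lay 0 of 10 genes at each time, against 0.0614%, 0.0472% and 0.142% of all genes, and past 1.5-fold also 0, against 0.538%, 0.491% and 1.24%. H2-K1 was the 1 gene of the 10 above 0 at both 8 and 24 h, as were 12.5% of all genes.

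Across the times the changes were tested with limma, in a fit over all 12 arrays and all genes in which each treated array was blocked with its untreated partner. The times serve as repeats there without being replicates, so p reflects the size of a change against its scatter over the 3 times. That scatter is 1 estimate per gene over both agents, so the p for one agent also reflects the scatter with the other. H2-K1, for instance, differed by 0.1 at each time with LIF and had the same standard error of 0.07 with both agents. The mean difference with conditioned medium was 0.32 ± 0.10 (SE) for Tap1, 0.29 ± 0.09 for Tap2, 0.25 ± 0.07 for H2-K1 and 0.22 ± 0.09 for H2-D1. It was 0.20 ± 0.10 for Psmb9, 0.19 ± 0.08 for Psmb10, 0.15 ± 0.06 for Tapbp, 0.12 ± 0.04 for B2m, 0.08 ± 0.09 for Psmb8 and 0.04 ± 0.08 for Nlrc5. Single times carried much of these means. Without the 8 h arrays the mean was 0.135 for H2-K1, 0.195 for Tap2, 0.095 for Psmb9, 0.07 for Psmb10 and 0.03 for Psmb8. Without the 4 h arrays it was 0.35 for H2-D1, 0.44 for Tap2, 0.36 for Psmb9, 0.29 for Psmb10, 0.235 for Tapbp, 0.19 for Psmb8 and 0.10 for Nlrc5. Without the 24 h arrays it was 0.09 for Tapbp, 0.03 for Psmb8 and -0.025 for Nlrc5. With 1 time left out the mean of Tap1 ran from 0.255 to 0.40 and that of B2m from 0.09 to 0.17. After Benjamini-Hochberg adjustment over all genes limma called 0 of these 10, against 0.217% of all genes (46 genes), and the smallest adjusted p was 0.305, for H2-K1. An unadjusted p under 0.05 was reached by 7 of the 10 (all but Psmb8, Psmb9 and Nlrc5), against 7.48% of all genes. With LIF 0 of the 10 passed after adjustment, where 0% of all genes passed, and 0 of 10 had an unadjusted p under 0.05 (6.82% of all genes). The largest LIF means were 0.10 ± 0.07 for H2-K1 and -0.10 ± 0.10 for Psmb9.

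The difference between the agents was tested in the same fit. Conditioned medium minus LIF was 0.32 ± 0.15 for Tap1, 0.30 ± 0.14 for Psmb9, 0.29 ± 0.13 for Tap2, 0.25 ± 0.12 for H2-D1 and 0.12 ± 0.05 for B2m. It was above 0 for each of the 10 genes, and the share of all genes above 0 was not counted. After adjustment 0 of the 10 passed, where 0% of all genes passed, with a smallest limma adjusted p of 0.967. B2m alone had an unadjusted p under 0.05, against 4.48% of all genes. The class I genes were thus not shown by this test to respond differently to the agents.

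Other steps of the pathway were read from a fixed list. Of 12 genes for other loading and trimming factors 0 passed with either agent, where 0.217% of all genes passed with conditioned medium and 0% with LIF. The endoplasmic reticulum chaperone genes Calr, Canx and Pdia3, which help fold and load class I molecules, stood at -0.01, 0.01 and -0.02 at 8 h with conditioned medium. Erap1, whose product trims peptides in the endoplasmic reticulum, stood at -0.02, -0.01 and -0.12 at 4, 8 and 24 h, and Tapbpl, a tapasin relative that edits peptides, at 0.09, 0.12 and -0.16. The list median was 0.02, -0.015 and -0.055, so these genes did not share the 8 h displacement of the 10. Of 8 measured proteasome partner genes 0 passed. Psme1 and Psme2, which encode the proteasome activator induced by interferon, stood at 0.25 and 0.14 at 8 h and at 0.09 and 0.00 at 24 h. Psmb6 and Psmb7, which encode the constitutive counterparts of Psmb9 and Psmb10, stood at 0.20 and 0.12 at 8 h.

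Of 24 other class I heavy chain genes and relatives measured, 0 passed after adjustment with conditioned medium, LIF or their difference. With conditioned medium 5 had an unadjusted limma p under 0.05, against 7.48% of all genes. At 8 h 19 of the 24 lay above 0, against 48.5% of all genes, and their median was 0.12. H2-Q4 had the highest value, with 0.30, 0.99 and 0.20 at 4, 8 and 24 h, which was larger at 8 h than in any of the 10 genes. H2-T22 stood at 0.11, 0.58 and 0.21 and H2-T23, the mouse Qa-1 gene whose product presents leader peptides of class I chains, at -0.02, 0.43 and 0.24. Mr1, which presents vitamin B metabolites, had the smallest p of the list with a mean of 0.17 ± 0.04 (limma adjusted p of 0.218). H2-M3, the relative with the spaced X2 and Y boxes, stood at 0.08, 0.16 and 0.16. In the opposite direction H2-Q7 stood at -0.68 at 8 h and H2-T10 at -0.25, both above background on only 3 of 6 arrays. Only 9 of the 24 were above background on all 6 arrays of the experiment.

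Class II genes and their partners, which serve professional antigen-presenting cells, were read as a contrast. Of 13 measured 0 passed, 2 were above background on all 6 arrays of the conditioned medium experiment and 7 on none. Their median with conditioned medium was 0.04, 0.01 and 0.13 at 4, 8 and 24 h. Ciita, the class II counterpart of Nlrc5, was above background on 0 of 6 of these arrays and Cd74, the invariant chain gene, on 1, so their differences are not read as changes in RNA.

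**Figure D4:**
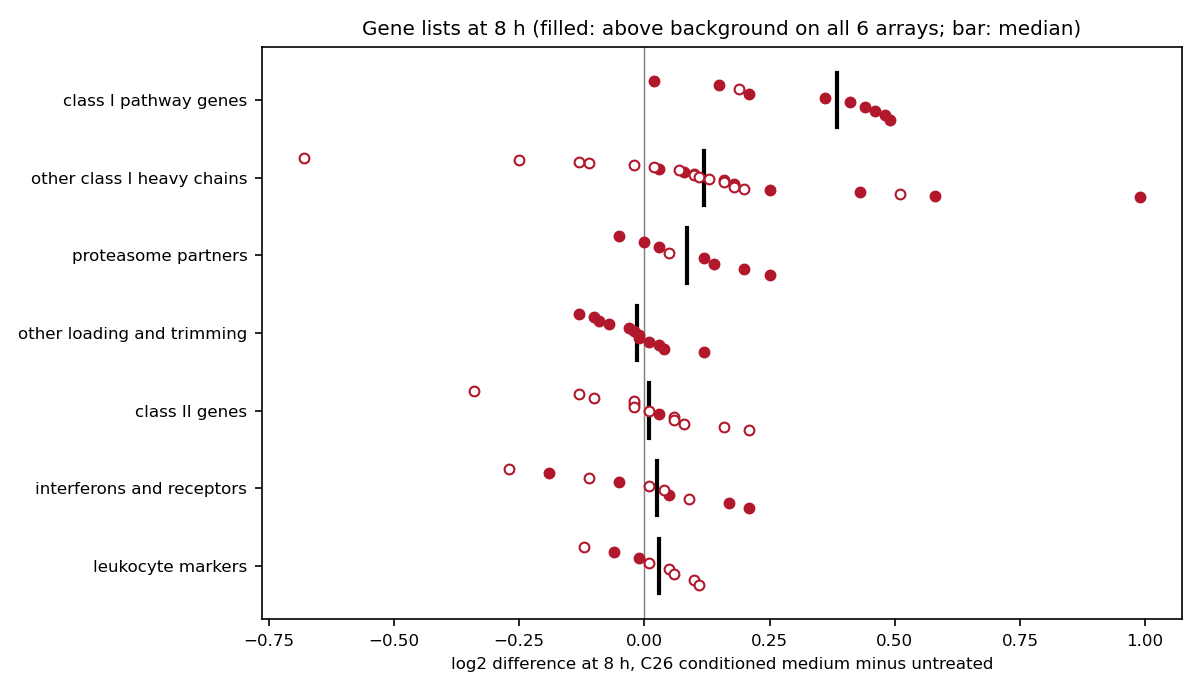
Log2 difference at 8 h with conditioned medium (x axis) for the genes of 7 lists, 1 point per gene, filled where the gene was above background on all 6 arrays, with a black bar at the list median. The median is 0.385 for the 10 class I pathway genes, 0.12 for other class I heavy chains and between -0.015 and 0.085 for the other lists.

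The factors that act on class I promoters were split. Of 18 regulator genes described here 3 rose with conditioned medium and 0 fell by limma, where 0.217% of all genes were called. The 3 were Irf9, Stat2 and Irf7. Irf9 and Stat2 encode factors that act together downstream of the type I interferon receptor, and Irf7 encodes a factor that drives interferon genes. For Irf9 the differences were 1.28, 1.97 and 1.06, and its mean over times of 1.44 ± 0.14 had an adjusted p of 0.0143 by limma. Stat2 was higher by 0.77, 1.36 and 0.57, a mean of 0.90 ± 0.12 with an adjusted p of 0.0294, and Irf7 by 1.33, 2.80 and 1.06. These factors were thus displaced at 4 h, when the median of the class I genes was -0.015. Irf1, a factor induced by interferon gamma that binds class I promoters, stood at 0.04, 0.17 and -0.09. The X box factor genes Rfx5, Rfxap and Rfxank and the Y box factor genes Nfya and Nfyb did not pass, with 8 h differences between -0.21 and 0.10. The NF-kB genes Nfkb1 and Rela stood at 0.06 and 0.05 at 8 h. With LIF 0 of the 18 passed. Socs3 came nearest, at 0.7, 0.8 and 1.1 with LIF, a mean of 0.87 ± 0.11 with a limma adjusted p of 0.0559. With conditioned medium it stood at 0.30, 0.84 and 0.84, a mean of 0.66 ± 0.11 with a limma adjusted p of 0.0557. The series-wide count of 46 genes, Irf9, Stat2 and Irf7 included, was 1 without the 4 h arrays. It was 0 without the 8 h arrays and 0 without the 24 h arrays.

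Of 13 antiviral interferon genes taken for their time course, 10 rose with conditioned medium by limma, where 0.217% of all genes were called. The response of this list was known from these data beforehand. The median of the 13 was 1.33, 2.80 and 1.10 at 4, 8 and 24 h. Their range at 4 h was 0.55 to 2.04, and the highest class I gene at that time stood at 0.17. As the list was chosen with these data known, that gap describes these 13 genes and not antiviral genes at large. Oas2 and Bst2, which are outside the list, stood at 0.18 and 0.12 at 4 h. They were found by their likeness to the class I median, as given below, which favours a low 4 h value. They are therefore no separate observation. The other genes found that way ran from -0.14 (Olfr205) to 1.06 (Ifi44) at 4 h. The antiviral median was lower at 24 h than at 4 h, while the class I median was -0.015 at 4 h and 0.225 at 24 h. Gene by gene, 9 of 10 class I genes had a larger difference at 24 h than at 4 h, all but H2-K1 (0.15 and then 0.12). Psmb8, in the background range, is among the 9. In the antiviral list Oasl2, Gbp3, Zbp1 and Ifi44 also had a larger difference at 24 h, and the others did not. The share over all genes was not counted. Irf7 and Irf9 are in this list and among the regulators. Of the 10 interferon and receptor genes measured 0 passed. Ifnb1 was above background on 0 of 12 arrays, and Ifng on 4 of 6 in the conditioned medium and 1 of 6 in the LIF experiment, so no difference is read for either. The receptor genes Ifnar1, Ifnar2, Ifngr1 and Ifngr2, above background on all 12, stood between -0.19 and 0.17 at 8 h.

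**Figure D5:**
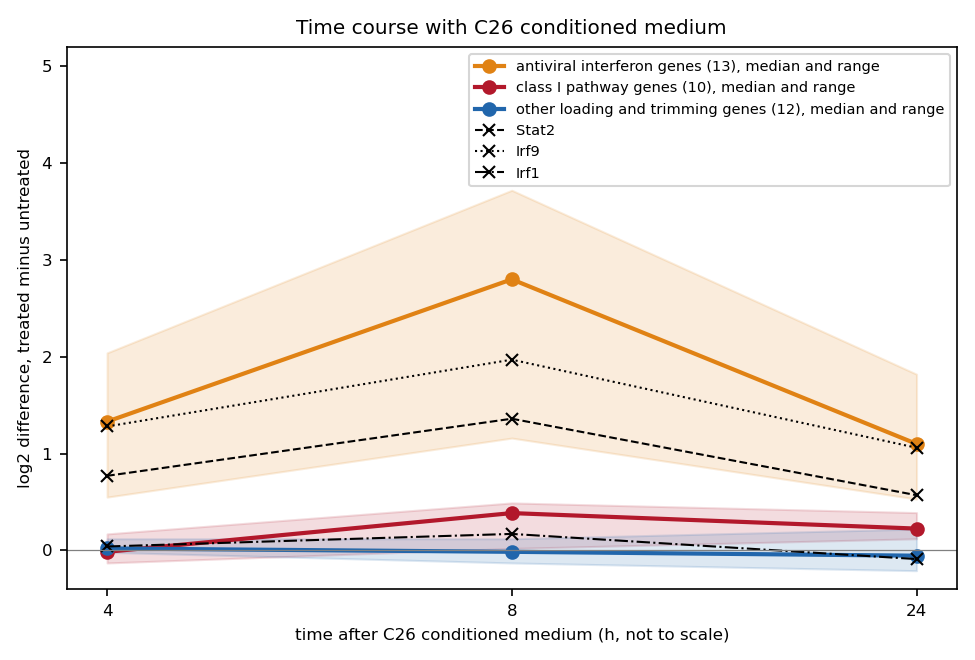
Log2 difference with conditioned medium (y axis) at 4, 8 and 24 h (x axis, not to scale), as median and range of the antiviral interferon genes, the class I pathway genes and the other loading and trimming genes, with Stat2, Irf9 and Irf1 in black. The class I median runs from -0.015 to 0.385 and 0.225 while the antiviral median runs from 1.33 to 2.80 and 1.10.

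Marker genes of other cells were read beside these values. Of 8 leukocyte and macrophage markers 0 passed with either agent, and their mean log2 level at 8 h was 4.87 with and 4.85 without conditioned medium. Ptprc, Csf1r, Itgam, Emr1, Lyz2 and Nkg7 were at or below the background limit on all 12 arrays, while Cd3e and Cd68 were above it on all 12. Of 8 colon carcinoma epithelium markers 0 passed, and Epcam, Vil1 and Krt20 were at or below the limit on all 12, while Cdh1, Krt8 and Krt19 were above it on all 12, Krt18 on 4 of 6 LIF and 6 of 6 conditioned medium arrays, and Cdx2 on 6 and 1. Of 6 genes marking fibroblasts and unfused cells 0 passed. But 4 (Pdgfra, Pax7, Col3a1 and Dcn) had an unadjusted limma p under 0.05 with conditioned medium, against 7.48% of all genes. With LIF 2 (Pdgfra and Col3a1) did, against 6.82% of all genes. The mean level of the 6 at 24 h was 8.64 with and 8.21 without conditioned medium, and 7.80 with and 7.55 without LIF. Dcn, a matrix proteoglycan gene, stood at 0.98 at 24 h with conditioned medium and at 1.0 with LIF, while Col1a1 stood at -0.10 and -0.2 and Thy1 at 0.22 and -0.4. The part of such cells in the class I values was not tested, and in pooled cultures more RNA per cell and more cells that make it cannot be told apart.

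Among 152 genes with at least 1 difference past 2-fold, the 10 whose 6 differences correlated best with the median of the class I genes were BC023105, Gbp7, Oas2, Bst2, Olfr205, Lgals3bp, Herc6, Ifi44, Bcl3 and Zbp1, with Pearson's r from 0.964 to 0.864. The 6 points share arrays and 2 agents, and r is a description. Oas2 (0.18, 1.35 and 0.89 with conditioned medium) and Bst2 (0.12, 1.22 and 0.89) shared the low 4 h value. So did BC023105 (0.09) and Olfr205 (-0.14). The others were higher at 4 h, with Bcl3 at 0.37, Gbp7 0.39, Herc6 0.71, Lgals3bp 0.75, Zbp1 0.84 and Ifi44 1.06. A gene ranked by this correlation is picked for its likeness, its 4 h value included. For Nlrc5 alone the 5 nearest were Trav8d-1, Ccl11, Tex19.1, Ifi27l2a and Slc1a3, with r from 0.974 to 0.891. Within the group, the correlation of a gene with the median of the other 9 ran from 0.71 for H2-K1 and 0.72 for Nlrc5 to 0.92 for Tap2.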

How the data were processed

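C2C12 myotubes were profiled on 12 Affymetrix mouse gene 1.0 ST arrays, grouped by their titles. Each array held pooled RNA of 3 wells, per the labels and the series' design text. The authors deposited log2 expression values, 1 per Entrez gene, made with RMA per the submitters' processing notes. For RMA's version, probe sets and build nothing was given in the sources used here. Signed fold changes, a score column per the file headers, were deposited too and used as an alternative only, and 12 further columns of per-sample values there were not used. Values were used with no filter or further normalization.

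Differences per time are treated minus untreated values of the same agent, with no test. Means over times come from limma 3.58.1, run in R 4.3.3 with lmFit and with eBayes under a variance trend (4 residual degrees of freedom), with pairs as a block, a threshold of 0.05 and adjustment over 21187 genes. The fit was tested on simulated data. All 10 genes are named. Neighbours are the 10 genes (5 for Nlrc5) with the highest Pearson's r among those with a log2 difference of at least 1, without predicted genes. Other genes come from fixed lists, of which 1 regulator gene and 1 leukocyte marker are not reported here. Members and lists were chosen with earlier results of these data known. Nothing says that arrays came from separate cultures beyond the pooled wells. The deposited LIF fold changes for 24 h bear a later date than those for 4 and 8 h. What the dates stand for is not stated, so a batch difference between those times cannot be told apart from time. The number of arrays limits the precision. Alternatives are given in the closing section. Counts above 0 at both 8 and 24 h and at an unadjusted p were added after the values were seen. Promoter windows come from a RefSeq table of build GRCm38.p6.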

Additional observations from a re-analysis of the deposited data

How the results depend on the processing

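The call of 0 of the 10 genes held in the fits for conditioned medium, LIF and their difference under each alternative run, with adjusted p from 0.242 to 0.996 for conditioned medium, 0.340 to 1 for LIF and 0.591 to 0.999 for the difference. The sign turned only without the 24 h arrays, for Nlrc5 with conditioned medium (-0.025) and for Psmb8 in the difference (-0.02). The median of the genes with conditioned medium at 8 h lay between 0.31 and 0.41, and at 24 h between 0.22 and 0.26, under quantile normalization (9 of 10 genes above 0 at 8 h), without the dimmer 50% of genes (which leaves out Tap1, Psmb8 and Nlrc5) and from the authors' deposited fold changes. Those ranges also hold leaving out Psmb8, or H2-K1 and H2-D1, both alternatives chosen after seeing the data.

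The count of 46 genes called with conditioned medium was 25 without the dimmer 50% of genes, 1 without the 4 h arrays, and 0 without the 8 h arrays, without the 24 h arrays, without a variance trend, with values rounded to 1 decimal and in the 6 arrays alone. The LIF count of 0 became 12 after quantile normalization. At 1.5-fold the counts at 4, 8 and 24 h were 114, 104 and 262 with LIF and 92, 241 and 529 with conditioned medium, and at 2-fold without the dimmer 50% of genes 1, 1 and 17 and then 4, 34 and 43. The causes were not tested, beyond the fewer genes and arrays in some fits. One array per group and rounding of the LIF values limit what could be seen.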
